A study of Mus musculus with 12 samples.

Results

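The genes described here belong to oligodendrocytes and the myelin they make. Mbp, Mobp, Mal, Ermn and Lpar1, 5 genes in all, were followed through 7 probe sets out of 45037 (Affymetrix control probe sets aside). A probe set is a group of short oligonucleotides on the array whose signals together give 1 value. Mal had 2 designated probe sets, Ermn and Lpar1 had 1 each, and for Mbp and Mobp every probe set was taken that the authors' short lists call by that name, 1 and 2. Those lists name 610 probe sets of 486 genes, all chosen by the authors on these arrays for a difference between genotypes. Mbp and Lpar1 were named only in the hippocampus list, and Mal, Ermn and Mobp only in the cerebellum list. A difference in the region where a gene was listed is therefore given as a description. The 5 genes were also chosen with earlier results of these data known. Values in the other region are thus not free of selection and are descriptions too. Other probe sets of these genes on the array were not analysed here.

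The study compared Ercc1-/- mice (KO) with Ercc1+/+ littermates (WT) at postnatal day 21, all from FVB and C57BL/6 crosses. Ercc1 is a subunit of a nuclease of DNA repair, and the labels name no tissue to which its loss would be restricted. Hippocampus and cerebellum were measured in 4 groups of 3 arrays, 12 arrays in all: KO hippocampus, WT hippocampus, KO cerebellum and WT cerebellum. No treatment was given in any group, as far as the labels say. Nothing in the labels says whether arrays with the same replicate number come from 1 mouse. Values are linear intensities made by the authors with dChip, in 1 table per region, so a level in hippocampus and a level in cerebellum are set side by side here without a test. Ercc1 itself lay between 49.8 and 65.9 in KO hippocampus against 175.2 to 222.6 in WT, and between 55.9 and 70.3 in KO cerebellum against 115.2 to 223.4 in WT. The median intensity of an array was between 154.4 and 168.2. Of 17 neuron markers 1 could be named, Neurod1, a transcription factor of granule neurons, which read 1168 to 1753 on the hippocampus arrays and 6996 to 7742 on the cerebellum arrays, from separate tables. No other neuron marker of that list could be named.

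Oligodendrocytes wrap axons in the brain with a spiral of membrane, the myelin sheath, which speeds conduction and feeds the axon. In mice most of this membrane is laid down after birth, and weaning age falls within that period. Myelin is rich in cholesterol and in a small set of proteins. Mbp holds the inner faces of the membrane together, Mobp is another small basic protein of central myelin, and Mal is a proteolipid of membrane rafts. Ermn (ermin) is a cytoskeletal protein of mature oligodendrocytes, and Lpar1 is a receptor for lysophosphatidic acid that oligodendrocytes and other brain cells carry. SOX10, a transcription factor of the SOX family, is a main regulator of myelin genes.

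The sequences at the starts of Mobp, Mal and Ermn, the genes listed in cerebellum, are shown. Of these, Mal and Ermn differed without overlap of KO and WT arrays in both regions, and Mobp in cerebellum only. Each window runs from 250 bases before to 50 bases past the start site in RefSeq, build GRCm38.p6, 5′ to 3′ on the strand of the gene. Capitals mark the letters ACAAAG or ACAATG, the core bound by SOX proteins, on either strand (CTTTGT or CATTGT when read on the other). The motif was chosen after the windows had been read.
Mobp, chr9:120149492-120149791, plus strand: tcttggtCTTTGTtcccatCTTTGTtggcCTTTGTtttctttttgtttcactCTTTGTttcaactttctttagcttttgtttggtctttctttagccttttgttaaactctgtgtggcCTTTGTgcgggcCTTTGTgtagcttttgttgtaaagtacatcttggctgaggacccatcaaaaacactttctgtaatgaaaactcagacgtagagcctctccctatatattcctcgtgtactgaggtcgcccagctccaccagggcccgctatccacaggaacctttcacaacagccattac
Mal, chr2:127656646-127656945, minus strand: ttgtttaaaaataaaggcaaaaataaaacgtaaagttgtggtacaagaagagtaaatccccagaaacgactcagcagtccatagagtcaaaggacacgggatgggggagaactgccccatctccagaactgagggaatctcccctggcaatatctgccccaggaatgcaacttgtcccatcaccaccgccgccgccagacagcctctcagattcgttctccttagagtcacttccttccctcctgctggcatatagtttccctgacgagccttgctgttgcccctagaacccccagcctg
Ermn, chr2:58052815-58053114, minus strand: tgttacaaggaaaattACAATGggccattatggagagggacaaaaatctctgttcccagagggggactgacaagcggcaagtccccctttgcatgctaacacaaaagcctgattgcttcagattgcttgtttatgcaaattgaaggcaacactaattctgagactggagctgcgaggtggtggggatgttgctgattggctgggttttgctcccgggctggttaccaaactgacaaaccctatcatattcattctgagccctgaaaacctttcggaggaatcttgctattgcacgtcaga

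The Mobp window held 6 matches of ACAAAG, all as CTTTGT, between 243 and 120 bases before the start site. The Mal window held 0 and the Ermn window 0 of them, and Ermn had 1 match of ACAATG. Of 32851 windows of the same length at mouse gene starts, 18.7% held at least 1 match of ACAAAG and 12.6% at least 1 of ACAATG. With the count of Mobp itself, 6 of ACAAAG, taken as the cutoff, 1 window reached it, that of Mobp. Motif and cutoff were both taken from windows already read, so this number is a description. Of 3 Lpar1 windows, 2 held 1 match of ACAAAG each. Windows of Mbp, on chromosome 18, were left out of this account of the members. These matches describe letters only and do not show binding.

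**Figure D1:**
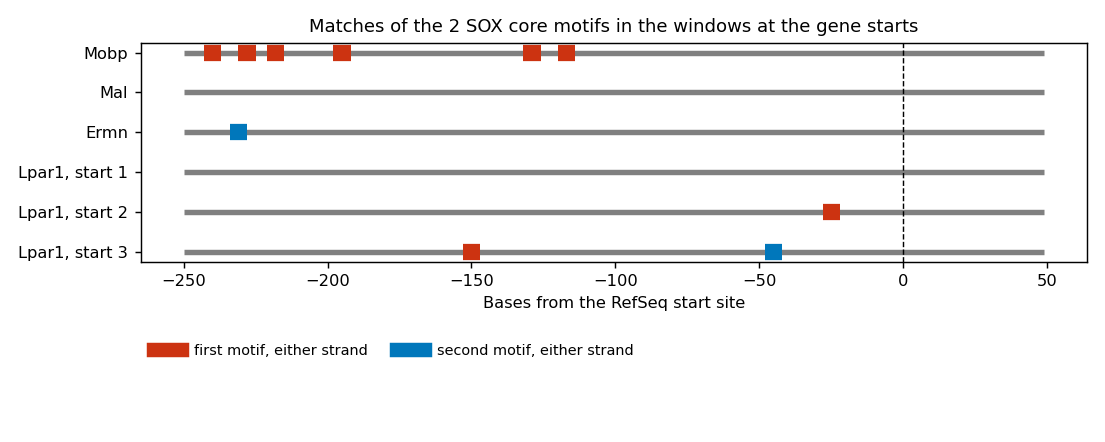
Matches of 2 SOX core motifs in the windows at RefSeq start sites of Mobp, Mal, Ermn and the 3 starts of Lpar1 (numbered from the most upstream; the windows of starts 1 and 2 overlap). The horizontal axis is distance in bases from the start site (dashed), red bars are matches of the ACAAAG core and blue bars of the ACAATG core on either strand; Mobp holds 6 red bars and Mal none.

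In KO hippocampus all 7 probe sets were lower than in WT, where 47.4% of all probe sets were, and in KO cerebellum all 7 were higher, where 45% were. The median over the 5 genes, each by its brightest probe set among the 7, was -0.36 in hippocampus and 0.35 in cerebellum. Both are on the scale log2(intensity + 32). The medians over all probe sets tested were 0.01 and -0.02. Of 23283 probe sets tested in both regions, 20.1% were lower in KO hippocampus and higher in KO cerebellum. In hippocampus 5 of the 7 had every KO array below every WT array, as did 4.44% of all 27022 probe sets tested, and 2 of these 5 had been listed by the authors on the same arrays. Among the 5 probe sets not listed there, of Mal, Ermn and Mobp, the number was 3, but these too were chosen with earlier results known. In cerebellum 5 of the 7 had every KO array above every WT array, against 5.3% of all probe sets, and all 5 were listed there. Of the 2 that were not, of Mbp and Lpar1, 0 did so. All 7 probe sets passed the filter on dim probe sets, which used the mean over the arrays of a region.

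No member passed the test in either region (limma, Benjamini-Hochberg adjustment at 0.05 over all 27022 probe sets). This was also true of all other probe sets, with 0% called in hippocampus and 0% in cerebellum. At an unadjusted limma p under 0.05, 5 members were lower in hippocampus, where 2.18% of all probe sets were, and 5 were higher in cerebellum, where 2.82% were. In hippocampus 2 of these 5 were listed there by the authors, and among the 5 probe sets not listed the number was 3. In cerebellum all 5 were listed, and of the 2 not listed 0 had such a p, so nothing is read from the cerebellum count. The hippocampus count is a description as well, since the members were chosen with earlier results known. With 3 arrays against 3, the smallest p that an exact two-sided permutation test allows is 0.1. In whole tissue, fewer oligodendrocytes and less of these RNAs per cell cannot be told apart.

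**Figure D2:**
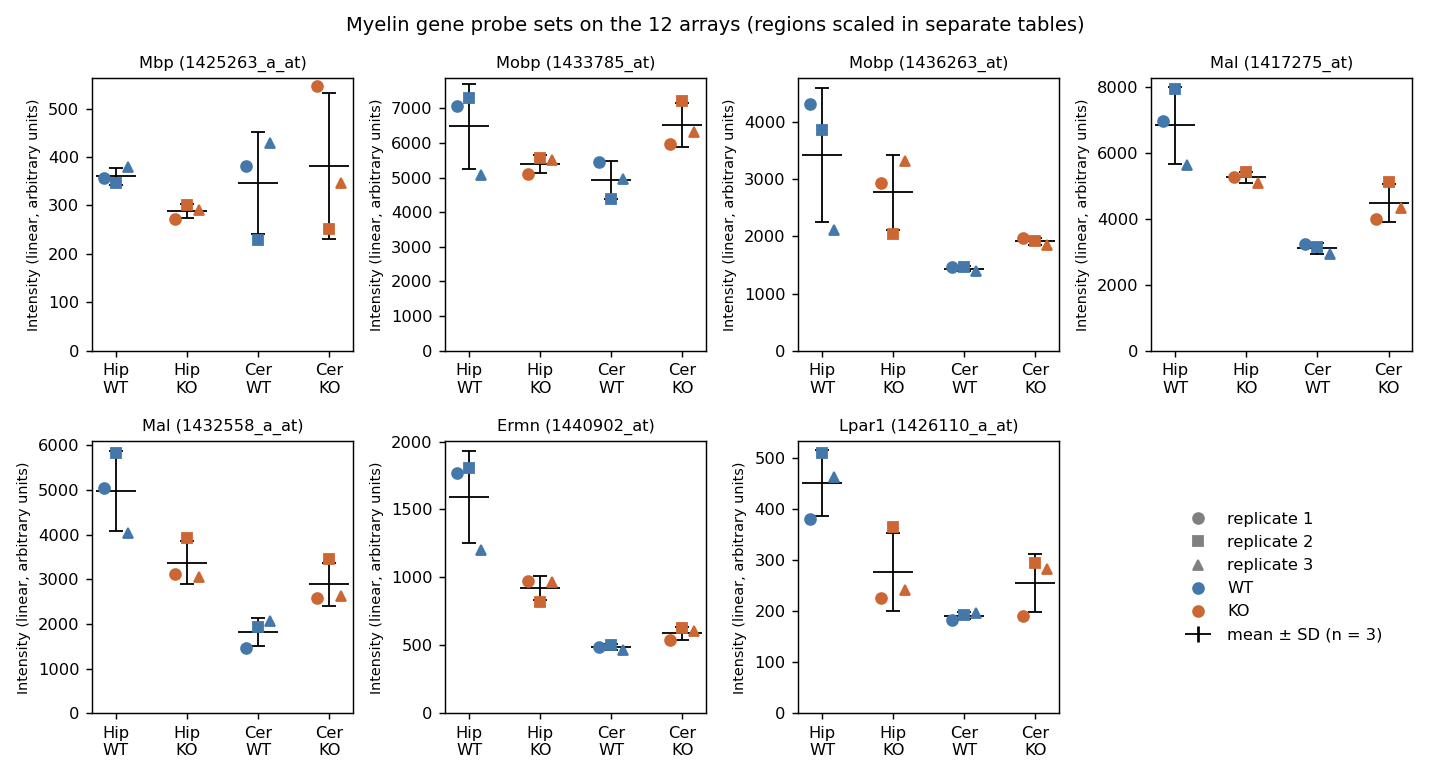
Intensity (linear, arbitrary units) of each of the 7 probe sets on the 12 arrays, by region (Hip, hippocampus; Cer, cerebellum) and genotype. Points are arrays, with the shape giving the replicate number, and bars are the mean ± SD of 3. KO points lie below all WT points in hippocampus and above them in cerebellum for Ermn and both Mal probe sets, while both Mobp probe sets overlap in hippocampus and Mbp and Lpar1 in cerebellum.

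Mal gave the largest differences of the 5 genes in cerebellum, in both of its probe sets. On the brighter one, 1417275_at, the KO hippocampus arrays read 5261, 5420 and 5084 and the WT arrays 6960, 7931 and 5616. All KO arrays were below all WT arrays there. The KO mean was 5255 ± 168 and the WT mean 6836 ± 1162 (SD of 3 arrays), and the log2 difference was -0.36 ± 0.12 (SE). The cerebellum arrays read 3987, 5116 and 4324 in KO and 3237, 3154 and 2917 in WT. Here all KO arrays were above all WT arrays, with a log2 difference of 0.52 ± 0.10 (SE), which is a ratio of KO to WT of 1.43.

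The other Mal probe set, 1432558_a_at, showed the same order with wider differences. In hippocampus it read 3124, 3931 and 3056 in KO and 5042, 5833 and 4042 in WT, a log2 difference of -0.55 ± 0.15 (SE). In cerebellum it read 2588, 3446 and 2625 in KO and 1465, 1932 and 2060 in WT, a log2 difference of 0.66 ± 0.16 (SE). The groups overlapped in neither region. Of the probe sets tested in hippocampus, 0.274% had a lower difference, but Mal was chosen as a member with earlier results known. For both probe sets the order of the group means was WT hippocampus, KO hippocampus, KO cerebellum, WT cerebellum, and only the middle neighbours, the KO groups of both regions, overlapped.

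Ermn had the largest difference of the 7 in hippocampus. The authors had not listed it there, but it was chosen as a member with earlier results known. The KO hippocampus arrays read 977, 820 and 966 and the WT arrays 1770, 1802 and 1199. The KO mean was 921 ± 88.0 and the WT mean 1591 ± 339 (SD of 3 arrays). The log2 difference was -0.75 ± 0.17 (SE), a ratio of KO to WT of 0.595. Of all probe sets tested, 0.0592% had a lower difference. The WT arrays spread far more than the KO arrays, with 1 of them, replicate 3, well below the other two. In cerebellum the KO arrays read 538, 632 and 603 and the WT arrays 489, 506 and 465, all KO arrays above all WT arrays but close to them. The log2 difference there was 0.26 ± 0.10 (SE). The group means fell in the same order as for Mal, and no neighbours in that order overlapped.

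Lpar1, the receptor of the set, was lower in KO hippocampus, the region where it was listed. Its arrays read 225, 366 and 242 in KO and 382, 511 and 463 in WT, without overlap. The log2 difference was -0.66 ± 0.19 (SE), with a ratio of KO to WT of 0.632. In cerebellum, where it was not chosen, it read 190, 294 and 283 in KO and 184, 193 and 197 in WT. KO replicates 2 and 3 were above all WT arrays and KO replicate 1 was among them, so the groups overlapped, and the log2 difference was 0.35 ± 0.15 (SE). The SD was 3.59% of the mean over the WT cerebellum arrays and 22.3% over the KO arrays. The KO groups of both regions overlapped as well.

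Mobp was higher in KO cerebellum, where it was listed, on both probe sets. On 1433785_at the cerebellum arrays read 5982, 7215 and 6322 in KO and 5456, 4373 and 4954 in WT, a log2 difference of 0.40 ± 0.10 (SE). On 1436263_at they read 1965, 1915 and 1857 in KO and 1457, 1470 and 1387 in WT, a log2 difference of 0.40 ± 0.08 (SE). On both, every KO array was above every WT array, and the second probe set had the smallest spread of the 7 there, with an SD of 2.81% of the mean in KO and 3.08% in WT. In hippocampus the groups overlapped on both. There 1433785_at read 5096, 5570 and 5502 in KO and 7071, 7286 and 5077 in WT, and its log2 difference was -0.25 ± 0.14 (SE). The probe set 1436263_at read 2944, 2049 and 3323 in KO and 4324, 3868 and 2105 in WT, a log2 difference of -0.27 ± 0.29 (SE). In both cases the overlap came from WT replicate 3, which read about as low as the lowest KO array.

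Mbp was read by 1 named probe set, 1425263_a_at, which had the smallest regional difference of the 7. Its arrays read 229 to 547, where array medians were 154.4 to 168.2. Other Mbp probe sets were not analysed, so the values hold for this probe set only. In hippocampus, where it was listed, the KO arrays read 272, 302 and 292 and the WT arrays 356, 346 and 380, without overlap. The log2 difference was -0.29 ± 0.09 (SE). In cerebellum the KO arrays read 547, 252 and 346 and the WT arrays 381, 229 and 429, with the groups lying across each other. The log2 difference of 0.11 ± 0.29 (SE) was smaller than its error. It was -0.17 without KO replicate 1 and -0.14 without WT replicate 2, so its direction in cerebellum rests on single arrays. The 2 cerebellum arrays with the highest Mbp, KO replicate 1 and WT replicate 3, also had the highest ratio of the 3' to the 5' control probe sets of Gapdh, 1.497 and 1.202, where the other 4 lay between 0.999 and 1.11. For the controls of Actb, KO replicate 1 was again highest at 2.47, but WT replicate 1 followed at 2.20, ahead of WT replicate 3 at 2.09, and the other 3 lay between 1.71 and 1.84. A high ratio marks RNA that is shorter or was copied less far from its 3' end, and its part in the Mbp values was not tested. The means of Mbp by group overlapped with their neighbours throughout the order KO cerebellum, WT hippocampus, WT cerebellum, KO hippocampus.

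**Figure D3:**
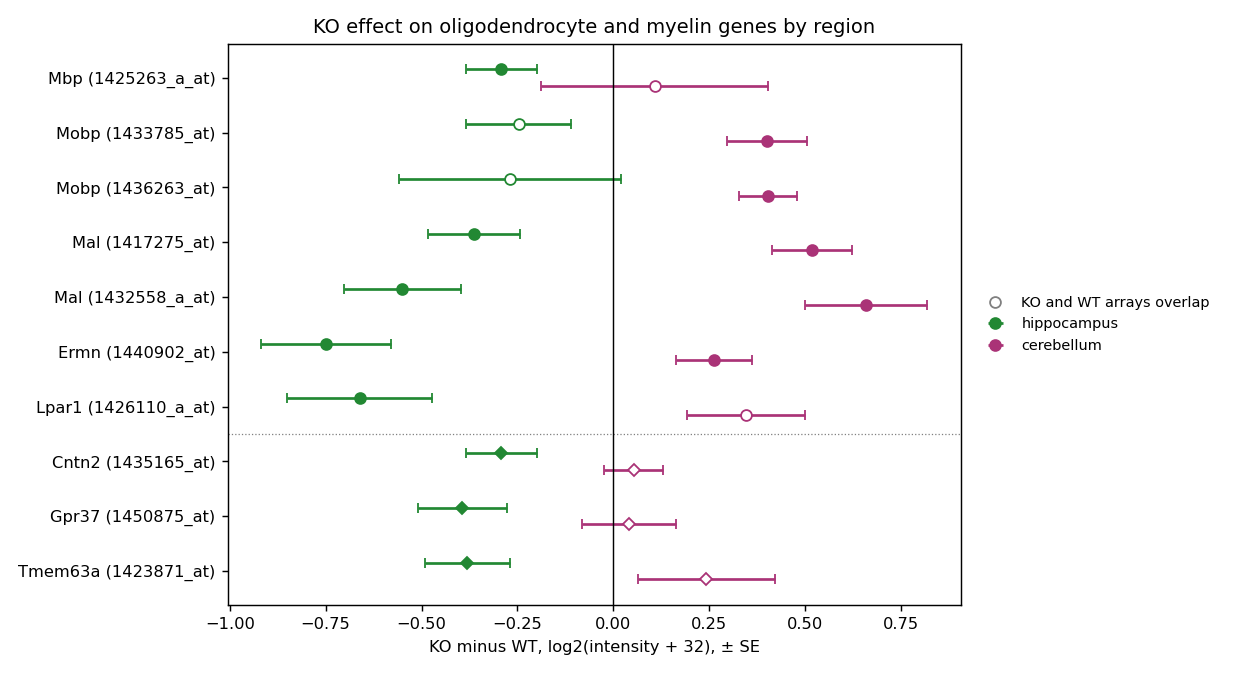
KO minus WT on the scale log2(intensity + 32), with SE, in hippocampus (green) and cerebellum (purple) for the 7 probe sets and, under the dotted line, 3 other genes of the oligodendrocyte list. Open symbols mark probe sets whose KO and WT arrays overlap. All green symbols lie below 0 and all purple ones above 0.

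The regional difference, the KO effect in hippocampus minus that in cerebellum, was below 0 for all 7 probe sets, as for 46.5% of all probe sets, with a median of -0.88 over the 5 genes. It was -1.21 ± 0.24 (SE) for 1432558_a_at of Mal, -0.88 ± 0.17 for 1417275_at of Mal, -1.01 ± 0.20 for Ermn and -1.01 ± 0.26 for Lpar1. The Mobp probe sets had -0.65 ± 0.19 and -0.67 ± 0.33, and Mbp had -0.40 ± 0.34. None of the 7 passed (0) in the limma fit over 12 arrays, where 0.00429% of 23283 probe sets were called. Ermn and both Mal probe sets had adjusted p = 0.869, and the other 4 had adjusted p = 1.0. At an unadjusted limma p under 0.05, 5 of the 7 were below 0, against 2.19% of all probe sets. Since each gene was listed in 1 of the regions, its selection enters this difference too.

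For 3 probe sets, those of Ermn and Mal, the KO arrays were all below WT in hippocampus and all above WT in cerebellum. This held for 43 of 23283 probe sets, or 0.185%. The 3 probe sets read only 2 genes and were all listed by the authors in cerebellum. Both genes were also chosen with earlier results known, so the share beside them is a description. The gap between the regions was set side by side for each probe set, with hippocampus divided by cerebellum. In WT mice the Ermn level in hippocampus was 3.08-fold that in cerebellum, and in KO mice 1.53-fold. For 1417275_at of Mal the ratios were 2.17 and 1.18, for 1432558_a_at of Mal 2.70 and 1.17, and for Lpar1 2.15 and 1.07. For 1436263_at of Mobp they were 2.25 and 1.41. For 1433785_at of Mobp the log2 gap went from 0.38 in WT to -0.27 in KO, and for Mbp from 0.09 to -0.31, so there the sign of the gap turned and for Mbp it was wider in KO. The hippocampus level relative to that of cerebellum was thus lower in KO for all 7. Whether the regions were nearer to each other in KO depends on a common scale, which the separate tables do not give.

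**Figure D4:**
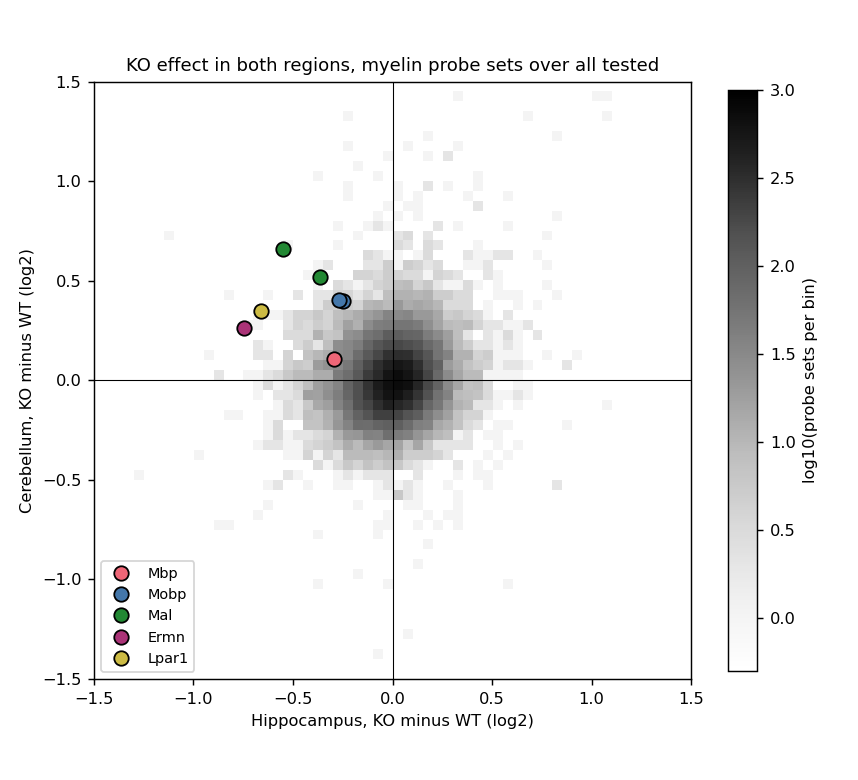
KO minus WT (log2) in hippocampus on the horizontal axis against cerebellum on the vertical axis. Grey shading counts the 23283 probe sets tested in both regions on a log10 scale (9 lie outside the frame), and coloured points are the 7 myelin probe sets. All 7 points fall in the upper left of the plot, with Mbp nearest to the bulk.

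WT hippocampus replicate 3 was the lowest WT array on 5 of the 7 probe sets, those of Ermn, Mal and Mobp. Without it all 7 probe sets had KO below WT with no overlap, against 8.91% of all probe sets, and the Ermn difference was -0.94. The Mobp differences were then -0.41 for 1433785_at and -0.58 for 1436263_at. Without WT replicate 2 the former was -0.15, and the latter was -0.07 without KO replicate 2 or without WT replicate 1. Within the hippocampus groups, 69.7% of the variance lay on a component that set KO replicates 1 and 3 and WT replicate 1 against the rest. Among these 3 arrays the median of the 5 genes was -0.43, and among the other 3 arrays -0.30. In cerebellum KO replicate 1, the array with the Gapdh ratio of 1.497, was the lowest KO array on 5 of the 7 probe sets. Without it 6 of the 7 had KO above WT with no overlap, against 13.7% of all probe sets, the median was 0.46 and the Lpar1 difference was 0.52.

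Mal, Ermn and Mobp tended to vary together, and the 1 Mbp probe set varied apart from them. It read 229 to 547 and Lpar1 184 to 511, against 4373 to 7286 for 1433785_at of Mobp. Other Mbp probe sets were not analysed, so this does not describe the gene as a whole. Over the 12 arrays, with the mean of each region subtracted, the 13 pairs of probe sets from different genes among Mal, Ermn, Mobp and Lpar1 had correlations between 0.12 and 0.92. The highest was that of 1433785_at of Mobp with 1417275_at of Mal. The 6 pairs with Mbp had correlations between 0.00 and 0.15. With the mean of each group subtracted, which takes out the genotype, the pairs with Mbp lay between -0.54 and -0.10. The other pairs then ran from -0.48, for Lpar1 with 1436263_at of Mobp, to 0.90, for Ermn with the same Mobp probe set. The points share arrays and their scaling, and the values are descriptions.

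The mean of the 5 genes by array, centred on its region, summed this up. It was -0.29, -0.15 and -0.25 in KO hippocampus and 0.26, 0.38 and 0.06 in WT hippocampus. In cerebellum it was 0.12, 0.20 and 0.17 in KO and -0.10, -0.28 and -0.12 in WT. The genotypes did not overlap in either region, and WT hippocampus replicate 3 lay nearest to the KO arrays of its region. Mbp and Lpar1 had been listed for a genotype difference in hippocampus, and Mal, Ermn and Mobp in cerebellum, on these same arrays. The set was also chosen with earlier results known. Selection thus favours a separation of this mean by genotype, and the separation is given as a description only.

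Of a list of 52 oligodendrocyte and myelin genes, 8 could be named, the 5 above and Gpr37, Cntn2 and Tmem63a. The names came from the authors' short lists, so these 8 were preselected for a genotype difference and are no independent sample of the 52. Mal, Ermn and Mobp were in the cerebellum list and the others in the hippocampus list. All 8 were lower in KO hippocampus, with a median of -0.37, where 47.4% of all probe sets were lower. All 8 were higher in KO cerebellum, with a median of 0.25, where 45% of all probe sets were higher. None passed the test in either direction (0 in each region by limma). Gpr37, a receptor that in mice holds back oligodendrocyte maturation, read 657, 822 and 679 in KO hippocampus and 900, 1037 and 922 in WT, a log2 difference of -0.39 ± 0.12 (SE). Tmem63a, a mechanically gated channel, read 288, 348 and 292 in KO and 377, 437 and 421 in WT, a difference of -0.38 ± 0.11. Cntn2, an adhesion molecule of the regions beside the nodes of Ranvier that neurons make as well, read 514, 504 and 481 in KO and 651, 634 and 574 in WT, a difference of -0.29 ± 0.09. All 3 had been listed by the authors in hippocampus and none overlapped there. In cerebellum all 3 overlapped, with differences of 0.04 ± 0.12 for Gpr37, 0.05 ± 0.08 for Cntn2 and 0.24 ± 0.18 for Tmem63a.

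Genes of other cell types and of cholesterol synthesis moved on the same arrays. Of 13 astrocyte markers 5 could be named, and 4 were higher in each region. Their median difference was 0.34 in hippocampus and 0.79 in cerebellum, with the largest for Aldoc in hippocampus (0.59 ± 0.09, SE) and Gfap in cerebellum (1.16 ± 0.13). The exception was Aqp4, the water channel of astrocyte endfeet, at -0.45 ± 0.08 in hippocampus with every KO array below every WT array, and -0.05 ± 0.10 in cerebellum with overlap. Glul, glutamine synthetase, had 0.06 ± 0.06 in hippocampus, with overlap. Aqp4 and Glul were named here after their values were seen. The summed intensity of the 5 named astrocyte markers was 17925 to 18924 in KO and 17229 to 17553 in WT hippocampus. In cerebellum it was 11991 to 13184 in KO and 8826 to 9930 in WT. Of 13 microglia markers 7 were named, with 6 higher in hippocampus (median 0.15, largest C1qa at 0.43 ± 0.27, with overlap) and 7 in cerebellum (median 0.93, largest Ctss at 1.13 ± 0.09). Their summed intensity was 11832 to 12341 in KO and 9931 to 11179 in WT hippocampus, and 3886 to 4280 in KO and 1936 to 2477 in WT cerebellum. No marker named in these lists read 0 on any array. In hippocampus the medians of both lists were above 0 and that of the myelin genes below 0, and in cerebellum all 3 medians were above 0. Their part in the myelin values was not tested.

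The 9 named genes of 22 in cholesterol biosynthesis were all lower in KO hippocampus (median -0.53) and 8 were lower in cerebellum (median -0.19), with Idi1 the largest in both at -0.96 ± 0.12 and -0.38 ± 0.11 (SE). In cerebellum they thus differed in the direction opposite to the myelin genes. Of 9 meningeal fibroblast markers 2 were named. Their differences were -0.07 ± 0.28 for Col1a2, the larger in hippocampus, and 0.68 ± 0.12 for Fmod, the larger in cerebellum. Alas2, the 1 named gene of 5 for red blood cells, had -0.64 ± 0.25 in hippocampus, with overlap, and -0.54 ± 0.14 in cerebellum. Neurod1 had 0.42 ± 0.09 and 0.02 ± 0.07. No precursor, endothelial or choroid plexus marker could be named (0 of 12, 9 and 6), so oligodendrocyte precursors could not be followed. No gene in these lists passed the test in hippocampus or cerebellum (0 by limma). The regional difference was below 0 for all 5 astrocyte, all 7 microglia and all 9 cholesterol genes as well, with medians of -0.45, -0.56 and -0.35, so that sign is shared with the myelin genes. Ctss, a cysteine protease of microglial lysosomes, was the 1 probe set of 23283 that passed it, at -0.88 ± 0.10 (SE, limma adjusted p = 0.0306).

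Among 492 named probe sets of 447 other genes, those most like the mean of the 5 genes over the 12 arrays, centred by region, were Klhl4 (r = 0.88), Phlda3 (r = 0.87), Tmem125 (r = 0.87) and Acly (r = 0.87), the enzyme that makes acetyl-CoA from citrate. Tmem125 differed by -0.30 ± 0.13 in hippocampus and 0.35 ± 0.12 in cerebellum, Phlda3 by -0.29 ± 0.11 and 0.44 ± 0.12, Klhl4 by -0.67 ± 0.13 and 0.13 ± 0.12, and Acly by -0.26 ± 0.07 and 0.15 ± 0.10 (SE). Those most opposed were Golm1 (r = -0.89), Homer3 (r = -0.80) and A930024E05Rik (r = -0.78). With the mean of each group subtracted, which takes out the genotype, these 3 had -0.73, -0.18 and 0.09. Klhl4 then had 0.76, Phlda3 0.70, Tmem125 0.67 and Acly 0.49. Taken singly, Mal was most like Tmem125 (r = 0.88), Mobp like Phlda3 (r = 0.90), Ermn like Cntn2 (r = 0.90), Lpar1 like Map3k5 (r = 0.85) and Mbp like Bcr (r = 0.95). All candidates had been listed by the authors on these arrays, and the values describe likeness of pattern only.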

How the data were processed

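RNA of hippocampus and cerebellum, with 3 KO and 3 WT arrays each, was measured on Affymetrix mouse genome arrays. The authors deposited linear intensity values made with dChip, per the labels. The sources used here do not give its version, background step or normalization. Their short lists give a signed fold change, a score, and a p-value per probe set, per the file headers; both were used only for names and list membership. The deposited matrix equals the region tables (largest difference 0).

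Values were analysed as log2(intensity + 32), which understates changes of dim probe sets. The 64 Affymetrix controls were removed. Probe sets with a mean above the 40th percentile of a region were kept. KO and WT were compared per region with limma 3.58.1 (R 4.3.3, lmFit and eBayes with a trend), and the regional difference in 1 fit over 12 arrays, with Benjamini-Hochberg adjustment at 0.05. A p-value here reflects only how these arrays spread, which may be technical. The fit was also run on simulated data, with noise drawn independently for each probe set and array. The shared component within the groups of the real arrays was not simulated, so nothing is read from that run. Symbols were updated with RefSeq of GRCm38.p6 (492 by symbol, 4 by accession, 42 by synonym; 21 name several genes and 51 none).

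Members and the 10 gene lists were chosen with earlier results of these data known. Named were all members, other named oligodendrocyte genes, the gene with the largest difference of each other list, and the genes most like the members by Pearson correlation. Alternatives changed the pseudocount, filter, normalization, trend, block, covariate, fit and arrays. Summaries and figures used NumPy 2.4.6 and pandas 2.3.3 in Python 3.11.15, with matplotlib 3.10.9 and SciPy 1.17.1. The number of arrays limits the precision.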

Additional observations from a re-analysis of the deposited data

Results flagged for a closer look

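Every KO array was below WT in hippocampus and above WT in cerebellum for Ermn (regional difference -1.01 on the log2 scale), for 1417275_at of Mal (-0.88) and for 1432558_a_at of Mal (-1.21). The test of the difference itself, limma over 12 arrays, was not passed by any of the 3 (adjusted p = 0.869 each). All 3 were listed by the authors in cerebellum, which fixes their direction there.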

How the results depend on the processing

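Of the values of single member probe sets under alternatives with a limma test, 346 kept their direction and stayed on the same side of the threshold, and 14 values with no test, within the sides of the residual component, kept their direction. In 2 the direction turned, both of Mbp in cerebellum (-0.17 without KO replicate 1 and -0.14 without WT replicate 2). The lowest adjusted p (limma) was 0.0908 in hippocampus, for Ermn and Lpar1, and 0.0565 for the regional difference, for Lpar1, each with the leading residual component as a covariate, and 0.257 in cerebellum; the highest was 1.0 in each. The median of the 5 genes ran from -0.50 to -0.32 in hippocampus, from 0.27 to 0.46 in cerebellum and from -0.99 to -0.77 for the regional difference when arrays were left out in turn. It was 0.23 in cerebellum over the 2 genes not listed there, and for the regional difference -0.76 with a filter at the 60th percentile, which drops Lpar1, and -1.01 with the mean over the probe sets of a gene. No gene lies outside both lists, so that alternative gave no regional value.

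The probe sets past the threshold numbered 0 in hippocampus, 0 in cerebellum and 1 for the regional difference. In hippocampus 8 passed with the residual component, 6 in 1 fit over 12 arrays, 0 to 5 with an array left out and 1003 at an unadjusted p under 0.05. In cerebellum these were 2, 34, 0 to 2 and 1169, and 1 passed with the stricter filter. For the regional difference 0 passed with no filter, quantile normalization, no trend or the replicate block, 4 with the residual component, 0 to 2 with an array left out and 731 at an unadjusted p under 0.05. No member was among those past the adjusted threshold. The cause was not tested.

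No label ties arrays of the same number together, and they were not treated as paired, since deviations of arrays with the same number did not all correlate above 0.1. For KO and WT they correlated at 0.69, 0.30 and -0.53 in hippocampus and at 0.06, 0.35 and -0.23 in cerebellum, and 3 of 6 arrays in hippocampus and 2 of 6 in cerebellum went best with their own number. Between the regions they correlated at 0.58, 0.54 and -0.27 in KO and at -0.02, 0.13 and -0.19 in WT. The replicate block cannot move the differences in this balanced design (medians -0.36, 0.35 and -0.88). It lowered the adjusted p of the regional difference from 0.869 to 0.198 and 0.219 for the Mal probe sets, and 0 probe sets passed in each comparison. Member probe sets without overlap, an alternative chosen after seeing the data, numbered 5 to 7 in hippocampus and 5 to 6 in cerebellum with an array left out; the values within the sides of the residual component were chosen likewise.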

Other observations

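The 2 probe sets of Mobp differed alike between genotypes in cerebellum (0.40 each) but not alike between regions. In WT mice the hippocampus level exceeded that of cerebellum by 0.38 on the log2 scale for 1433785_at and by 1.17 for 1436263_at, and in KO mice by -0.27 and 0.50. The log2 gap between these probe sets on 1 array ran from 0.71 to 1.43 in hippocampus and from 1.55 to 1.90 in cerebellum, without overlap, so a constant scale factor of a table does not enter it. For Mal the gap ran from 0.44 to 0.75 in hippocampus and from 0.50 to 1.13 in cerebellum, with overlap.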
